A study of Caenorhabditis elegans with 8 samples.

Results

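Some genes with abundant messages in Caenorhabditis elegans sperm and few in oocytes also have reads in 1-cell embryos. Here these are the genes with at least 10 RPKM (reads scaled to gene length and library size) in both sperm libraries and a sperm mean above the 1-cell mean, at most 1 RPKM in both oocyte libraries, and at least 2 RPKM in both 1-cell libraries. The rule found 84 of the 21774 genes in the table. They are 5.13% of the 1637 genes that met the sperm and oocyte conditions. The 84 genes were chosen by their values in sperm, oocytes and 1-cell embryos, so these are described without a test, and the 2-cell embryos are the libraries that the choice did not use.

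Polyadenylated RNA was sequenced from sperm, oocytes, 1-cell embryos and 2-cell embryos, as 2 libraries for each stage or cell type and 8 libraries in all. The labels give the strain TX189(OMA-1::GFP), a line in which the oocyte protein OMA-1 carries a fluorescent tag, and 24 °C for every library. The protocol instead names N2 wild-type adults for the oocytes, which were cut out and collected with a mouth pipette, and males from fog-2(q71) worms for the sperm, which was filtered and activated with Pronase. It describes sorting by flow cytometry for the 1-cell embryos and does not describe how 2-cell embryos were collected. Strain and collection therefore cannot be told apart from stage. In bulk RNA of this kind, fewer cells of a type and less RNA per cell cannot be told apart. Nothing in the labels says that libraries of a group are separate cultures, so p-values measure only the spread between these libraries, which may be technical.

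In nematode fertilization the whole spermatozoon fuses with the oocyte, and its cytoplasm, organelles and RNA enter with the nucleus. Transcription stops before sperm are complete, so mature sperm run on messages and proteins made in the spermatocyte. The 1-cell embryo in turn runs on maternal messages and hardly transcribes its own genome. These libraries do not mark which parent a transcript came from.

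Sperm and oocyte markers were highest in the libraries of those names. The 30 major sperm protein genes of a marker list, which encode the motility protein of nematode sperm, summed to 173576 and 173597 RPKM in sperm and to 1.71 to 76.5 RPKM in the other 6 libraries. The 13 oocyte markers summed to 23339 and 22488 RPKM in oocytes, 2985 to 4145 in 1-cell embryos and 278 to 1082 in sperm. The 11 body wall muscle markers summed to 2836 and 6702 RPKM in sperm, 10.4 to 76.9 in embryos and 24.5 to 38.8 in oocytes. Outside sperm most of this sum was the actin gene act-4, with 38.9 and 7.49 RPKM in the 1-cell libraries, 59.8 and 7.30 in the 2-cell libraries and 31.5 and 20.4 in oocytes. The 12 cuticle markers summed to 538 and 1127 RPKM in sperm and to 16.3 and 27.04 in oocytes. In embryos their sum was higher in replicate 1, with 50.4 and 9.87 RPKM at the 1-cell and 82.3 and 10.96 at the 2-cell stage. Most of the embryo sum came from sqt-3 and dpy-10. The 12 intestine markers summed to 680 and 123 RPKM in sperm and to 1.99 to 6.99 in the other 6 libraries. The sum of the 11 neuron markers was lower in sperm, with 112 and 141 RPKM, than in oocytes, with 466 and 384. Most of it was snb-1, with 90.3 and 102 RPKM in sperm and 462 and 379 in oocytes. The median of the neuron list was higher in sperm, with 2.23 and 3.87 RPKM, than in oocytes, with 0.380 and 0.417. The male accessory gonad list shares snf-10 with the list for sperm function and fertilization. Of the marker genes for other cell types, 7 for muscle, 3 for male accessory gonad (snf-10 among them) and 1 for intestine met the sperm and oocyte conditions. These could have been members, and 0 were. At the 5.13% of all such genes that were members, a count of 0 among so few says little. The part of male body RNA in the list of 84 genes was not tested. Read totals are not given. A rough depth can be had from the step between low values, and came to 2.06e+07 and 3.51e+07 reads in 1-cell embryos and 1.76e+07 and 3.00e+07 in 2-cell embryos. The oocyte columns showed no clear step, and their depth is unknown. At those depths the 1-cell values of the 79 annotated members rest on roughly 13.4 to 339 reads (median 60.01) in replicate 1 and 29.8 to 484 reads (median 110.3) in replicate 2. Oocyte columns also held fewer zeros (2.48% and 2.93% of genes, against 26.4% to 29.4% in the embryos). Whether they were computed like the other columns is not known from the sources used here, so 1 RPKM in oocytes may not mean the same as 1 RPKM elsewhere, which touches the oocyte limit of the rule and each comparison of 1-cell with oocyte values.

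The 84 transcripts were scarce in the embryo. Their 1-cell mean ran from 2.17 to 19.2 RPKM with a median of 3.94, and 56 of them lay under 5 RPKM while 7 reached 10. In sperm their means ran from 14.1 to 6807 RPKM with a median of 228, and in oocytes from 0.0238 to 0.932 with a median of 0.306. Together they made up 6.70% and 8.31% of all RPKM in the sperm libraries, and 0.0467% and 0.0494% in the 1-cell libraries. All 1637 genes that met the sperm and oocyte conditions summed to 362651 and 519516 RPKM in sperm. Their sums were 1313 and 1199.9 RPKM in 1-cell embryos, and 229 and 151 in oocytes. The 1-cell sums were thus 0.298% and 0.272% of the mean sperm sum. These 1637 genes are called sperm genes below only for their level in the sperm libraries. Among them are 7 of the muscle markers and 1 of the intestine markers, and the part of body RNA in them was not tested.

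The 1-cell level was not a fixed fraction of the sperm level. Expressed as a percentage of the sperm mean, it ran from 0.0544% to 58.2% with a median of 1.78% over the 84 genes. It lay under 1% for 31 members, from 1% to 10% for 42 and at 10% or more for 11. Part of this range follows from the rule, since a member with little RNA in sperm needs a high percentage to reach 2 RPKM. The sperm mean had a median of 1303 RPKM in the first class, 146 in the second and 23.9 in the third, while the 1-cell medians were 3.72, 3.99 and 4.34 RPKM. The 1553 other sperm genes are those that missed 2 RPKM in a 1-cell library, so the rule also holds their percentage down where the sperm level is high, and the relation of 1-cell to sperm level cannot be read apart from the rule. Among all 1637 genes, members were 2.36% of those with 10 to 30 RPKM in sperm and 22.1% of those with 1000 RPKM or more.

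**Figure D1:**
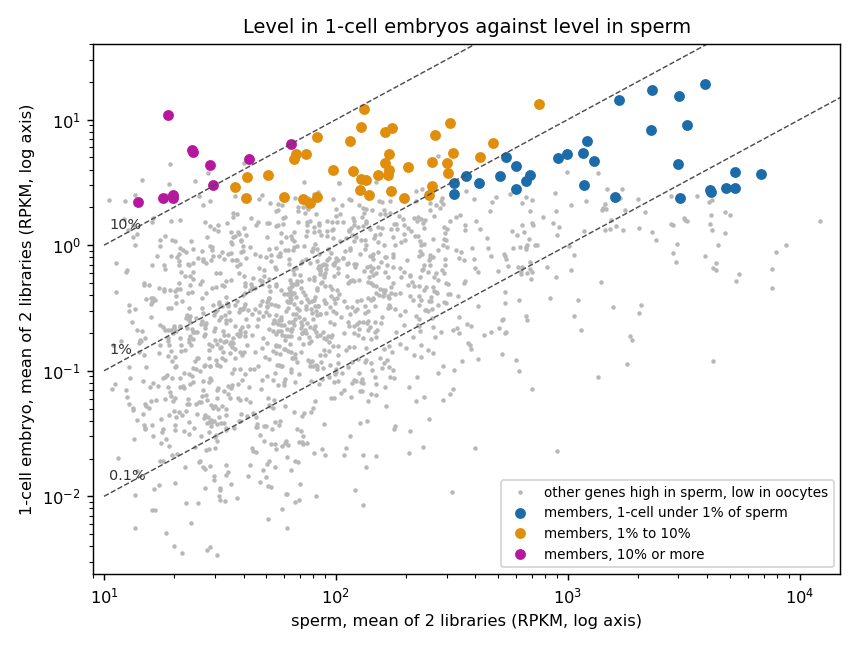
Mean RPKM in 1-cell embryos (vertical, log axis) against mean RPKM in sperm (horizontal, log axis) for the 84 members, coloured by the 1-cell mean as a percentage of the sperm mean, and for the other genes high in sperm and low in oocytes (grey; 139 genes at 0 in both 1-cell libraries are not drawn). Dashed lines mark 0.1%, 1% and 10% of the sperm level, and the members lie between 0.0544% and 58.2%.

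The nspd genes, a nematode-specific peptide family (group D), had 5 members, more than any other listed family under this oocyte limit. All 5, and the 3 major sperm protein members, had over 0.5 RPKM in oocyte replicate 1 and drop out with an oocyte maximum of 0.5 RPKM. Of the 10 nspd genes in the table, 9 met the sperm condition. Of these 9, 7 met the oocyte condition, 7 the 1-cell condition and 5 the whole rule. For this and the families below, the share of members over all genes that met the sperm and oocyte conditions was 5.13%. It was 22.1% among those with 1000 RPKM or more in sperm. The highest of all 84 genes in 1-cell embryos was nspd-1 (ZK484.8, chromosome I), with 2663 and 5130.4 RPKM in sperm, 0.791 and 0.0724 in oocytes, 7.65 and 30.7 in zygotes and 17.4 and 26.1 after the first division. Its 1-cell libraries differed by 4.01 times, and the 2-cell values lay between them.

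For nspd-4 (T23B7.1) the values were 2336 and 3711 RPKM in sperm, 0.855 and 0.0435 in oocytes, then 10.5 and 20.2 (1-cell) and 14.99 and 18.9 (2-cell). For nspd-6 (C24D10.8) they were 1827 and 2734 in sperm, 0.530 and 0.143 in oocytes, 5.50 and 10.9 at the 1-cell and 10.7 and 11.5 at the 2-cell stage. The other two, nspd-5 (F11G11.8) and nspd-3 (C24D10.7), had 1-cell means of 5.38 and 4.47 RPKM. In all 5, replicate 2 was the higher 1-cell library, and the 1-cell mean was 0.149% to 0.506% of the sperm mean. Also read in both 1-cell libraries were nspd-2 and nspd-7, with 2.78 and 15.5 RPKM for nspd-2 and 14.7 and 25.0 for nspd-7. They were no members because oocyte replicate 1 held 1.65 and 1.40 RPKM of them. Annotated transcripts of the 5 members are 213 or 216 nucleotides long, and members of a peptide family can be alike in sequence, so reads may be split among the copies and the level of a single gene is uncertain.

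The major sperm proteins (MSP), which assemble into the fibres that drive the crawling of nematode sperm and which also signal to the oocyte, had 3 members, at ranks 46, 64 and 80 of the 84 by 1-cell mean. All 30 MSP genes in the table met the sperm condition, 22 met the oocyte condition as well, 7 reached 2 RPKM in both 1-cell libraries, and 3 met the whole rule. Of these msp-40 (C33F10.9) was the highest of the 84 genes in sperm, with 6313 and 7301 RPKM, and had 0.981 and 0.133 in oocytes, 2.68 and 4.76 in zygotes and 4.25 and 3.61 after the first division. msp-19 (F36H12.7) had 5281 and 5214 RPKM in sperm, 2.18 and 3.53 at the 1-cell and 5.47 and 2.42 at the 2-cell stage. msp-142 (K05F1.2) had 2877 and 3198 in sperm, 2.36 and 2.37 at the 1-cell and 3.71 and 2.15 at the 2-cell stage. Relative to their sperm level the 3 MSP members were near the bottom of the set, at 0.0546% of the sperm mean for msp-40, 0.0544% for msp-19 and 0.0779% for msp-142. The 4 others that reached 2 RPKM in both 1-cell libraries, msp-36, msp-45, msp-53 and msp-59, had 1.14 to 2.25 RPKM in oocyte replicate 1 and 0.0360 to 0.159 in replicate 2. MSP genes are nearly identical, so reads cannot be assigned to single copies with certainty.

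Of the 16 genes in the table for small proteins with a single MSP domain, 15 met the sperm condition. Of these 15, 12 met the oocyte condition, 5 reached the 1-cell level and 2 were members. ssp-35 (F55C5.1) stood at 1380.0 and 1935 RPKM in sperm, 0.293 and 0.0771 in oocytes, then 14.04 and 14.5 (1-cell) and 14.5 and 5.16 (2-cell). Its 1-cell mean was 14.3 ± 0.348 RPKM (SD, n = 2). ssp-9 (E03H12.10) had 5682 and 4851 RPKM in sperm but 4.91 and 2.79 at the 1-cell and 8.59 and 1.75 at the 2-cell stage. It was a member by a narrow margin, with 0.996 RPKM in oocyte replicate 1, while ssp-11, a close copy with 4.66 and 2.79 RPKM in 1-cell embryos, had 1.003 there and was not. The highest 1-cell values of this family belonged to genes that the oocyte condition kept out: ssp-16 with 45.3 and 40.4 RPKM and msd-4 with 20.7 and 26.6, against 1.18 and 1.13 RPKM in oocyte replicate 1.

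F17E9.5, Y59E9AR.1 and Y59E9AR.7, which have no gene name in the annotation, had a similar pattern of high sperm and low 1-cell levels. Their sperm values were 4182 and 5427 RPKM, 4498 and 3755, and 4489.8 and 3769.5, and their 1-cell means were 0.0596%, 0.0662% and 0.0648% of the sperm mean. Together with msp-40 and msp-19 they had the 5 lowest percentages of the set. The Y59E9AR pair was alike in 1-cell embryos, with 2.65 and 2.81 RPKM for Y59E9AR.1 and 2.58 and 2.77 for Y59E9AR.7.

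Genes with a known place in sperm or zygote followed. spe-11 (F48C1.7), which encodes a sperm-supplied protein that the zygote needs for eggshell formation and exit from meiosis, had 324 and 876 RPKM in sperm, 0.0726 and 0.0203 in oocytes, 3.59 and 2.01 at the 1-cell and 4.92 and 2.08 at the 2-cell stage. It was the member closest to the 1-cell limit. Among 36 listed genes for sperm function and fertilization, 34 met the sperm condition, 22 of these met the oocyte condition, 10 reached the 1-cell level with more RNA in sperm, and spe-11 was the single member. The sperm phosphatases gsp-3 (W09C3.6) and gsp-4 (T03F1.5), which are needed for sperm meiosis and motility, were both members. gsp-3 stood at 1366 and 1240.1 RPKM in sperm, 0.617 and 0.206 in oocytes, 4.73 and 4.55 in zygotes and 10.1 and 5.69 after the first division. gsp-4 stood at 1263 and 1093 in sperm, 0.331 and 0.166 in oocytes, then 3.42 and 2.59 (1-cell) and 6.403 and 2.48 (2-cell). The pair is close in sequence, so their reads may be shared. pei-2 (R09A1.2), a component of the germ granules of sperm that carry paternal small-RNA inheritance, had 163 and 161 RPKM in sperm and 3.43 and 5.67 in 1-cell embryos, but 0.972 and 0.773 in oocytes, and an exon of it overlaps ergo-1, an Argonaute gene with a 1-cell mean of 65.9 RPKM.

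Several members high in 1-cell embryos have no assigned function or none tied to sperm. C04F12.7 had 1352 and 3267 RPKM in sperm, 0.478 and 0.0793 in oocytes, 17.1 in each 1-cell library, and 18.4 and 12.1 in 2-cell embryos. K08C9.2 had 645 and 862 in sperm, 0.454 and 0.0647 in oocytes, 13.7 and 13.01 at the 1-cell and 12.95 and 7.75 at the 2-cell stage. These 2 genes and ssp-35 were the members of at least 10 RPKM whose 1-cell libraries lay closest together.

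gipc-1 (C35D10.2), a homologue of the mammalian GIPC adaptor proteins, had 1955 and 4602 RPKM in sperm, 0.426 and 0.0491 in oocytes, 11.6 and 6.52 in zygotes and 13.7 and 6.91 after the first division. sams-5 (T13A10.11), of the S-adenosylmethionine synthetase family that makes the cell's methyl donor, had 294 and 327 in sperm, 0.485 and 0.313 in oocytes, then 12.1 and 6.78 (1-cell) and 13.1 and 4.73 (2-cell). cyc-2.2 (ZC116.2), a cytochrome c gene, had 685 and 1302 in sperm, 0.175 and 0.00662 in oocytes, 6.50 and 4.17 at the 1-cell and 9.01 and 2.59 at the 2-cell stage. In these 3 genes replicate 1 was the higher library at both embryonic stages.

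ztf-31 (T20H4.2), a zinc finger gene, had 66.4 and 99.9 RPKM in sperm, 9.42 and 5.09 at the 1-cell and 10.7 and 3.43 at the 2-cell stage. F37C12.18 had 6.86 and 10.5 RPKM in 1-cell embryos and the highest oocyte mean of the set, 0.932. Y75B8A.23 and ZK1098.6 had 1-cell means of 6.73 and 6.43 RPKM, with replicate 2 over 2 times replicate 1 in both.

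T27E7.1, F58D5.7 and F10C1.3 had 1-cell means of 6.78, 7.49 and 6.51 RPKM, and rmd-3 (B0491.3), of a family of microtubule regulators, one of 4.91. clp-6 (Y77E11A.10), a calpain protease gene, and elo-8 (Y47D3A.30), of the fatty acid elongase family, were lower, with 3.12 and 4.88 RPKM for clp-6 and 2.07 and 2.61 for elo-8. The neuropeptide-like gene nlp-4 (F59C6.6) had 87.8 and 216 RPKM in sperm and 3.58 and 3.60 in 1-cell embryos.

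**Figure D2:**
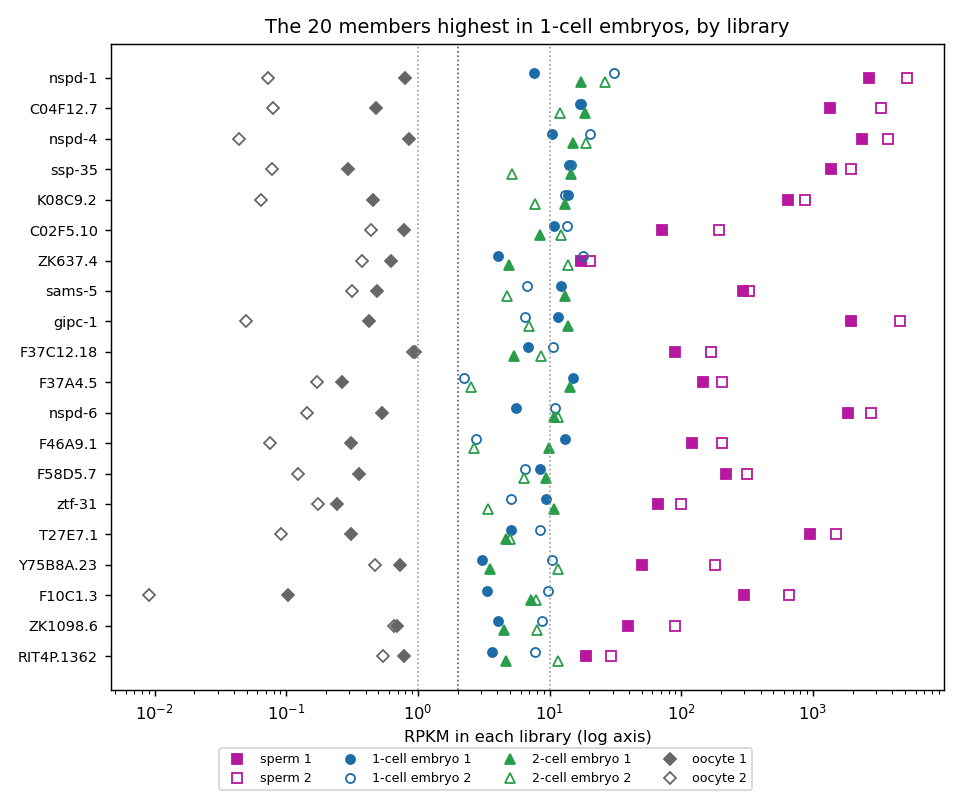
RPKM in each of the 8 libraries (horizontal, log axis) for the 20 members with the highest 1-cell mean, with filled symbols for replicate 1 and open symbols for replicate 2. Dotted lines mark the limits of 1, 2 and 10 RPKM of the rule. Sperm values reach 5130.4 RPKM for nspd-1, and the embryo libraries of F37A4.5 differ most.

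Agreement between the 1-cell libraries varied by gene. The higher value was 1.41 times the lower in the median member, and over 2 times in 14 members, with replicate 1 higher in 5 of these and replicate 2 in 9. F37A4.5 was the widest, with 14.96 and 2.22 RPKM, a factor of 6.75. F46A9.1 followed with 13.1 and 2.74 RPKM, and ZK637.4 with 4.02 and 17.9. The 2-cell libraries repeated this split by number: 14.3 and 2.54 RPKM for F37A4.5, 9.80 and 2.64 for F46A9.1, and 4.93 and 13.7 for ZK637.4. Over the 84 genes the log2 difference between replicate 1 and replicate 2 at the 1-cell stage had a Pearson's r of 0.791 with that at the 2-cell stage (0.877 over the 11935 genes tested), and of 0.0150 with that in sperm. This is across genes, which are not independent replicates.

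A choice made on single libraries shows how far the 1-cell reading repeats. When the rule was applied to replicate 1 of each group alone, it found 188 genes, and 96 of these (51.1%) also had 2 RPKM or more in 1-cell replicate 2. Their median fell from 3.09 RPKM in the library that chose them to 2.04 in the other, where the median in oocyte replicate 2 was 0.157. When applied to replicate 2 alone it found 195 genes, 118 of which (60.5%) had 2 RPKM or more in 1-cell replicate 1, with medians of 3.13 and 2.36 RPKM and an oocyte median of 0.427 in replicate 1. In the libraries that did not choose them, 179 of the 188 and 191 of the 195 genes had more RPKM in 1-cell embryos than in oocytes. All 84 members are in both picks by construction, and the share over all genes is not given. These counts are therefore no support for the members apart from the rule.

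The edges of the rule were crowded. In 40 members the lower 1-cell library was under 3 RPKM, and 166 further genes had 1 RPKM or more in both 1-cell libraries. Just inside the 1-cell limit stood spe-11, K06A5.2 (2.82 and 2.03 RPKM) and T02E1.7 (3.37 and 2.04). Just outside stood R13A5.11 (2.05 and 1.996 RPKM), W08E3.4 (2.07 and 1.97) and spsp-1 (F07A5.2; 5.64 and 1.96). Of the 1241 genes that met the sperm and 1-cell conditions, 1157 had over 1 RPKM in an oocyte library, and 45 of those stayed at or under 2 RPKM in both. In 9 members an oocyte library held 0.9 RPKM or more.

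The oocyte libraries were unlike for some members and alike for others. Oocyte replicate 1 was the higher in 76 of 84 members and over 2 times replicate 2 in 42. The other 1553 sperm genes low in oocytes were split the same way, with medians of 0.0551 and 0.0230 RPKM. Relative to sperm, their medians were 0.0157% and 0.00172% for genes of 1000 RPKM or more in sperm, and 0.177% and 0.115% for genes of 10 to 30 RPKM. In the 31 members whose 1-cell mean was under 1% of sperm, 29 were over 2 times higher in replicate 1, and the median ratio was 6.75 (medians of 0.426 and 0.0593 RPKM). In the 42 members of 1% to 10%, 12 were, with a median ratio of 1.37. In the 11 members of 10% or more, 1 was, with a median ratio of 1.202 (medians of 0.618 and 0.542 RPKM). The MSP list as a whole summed to 24.3 RPKM in oocyte replicate 1 and 1.71 in replicate 2. Over 1 RPKM in replicate 1 alone kept out msp-36, msp-45, msp-53, msp-59, nspd-2, nspd-7, ssp-11, ssp-16 and msd-4. These genes met the other conditions of the rule. The source of the difference between the oocyte libraries was not tested.

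**Figure D3:**
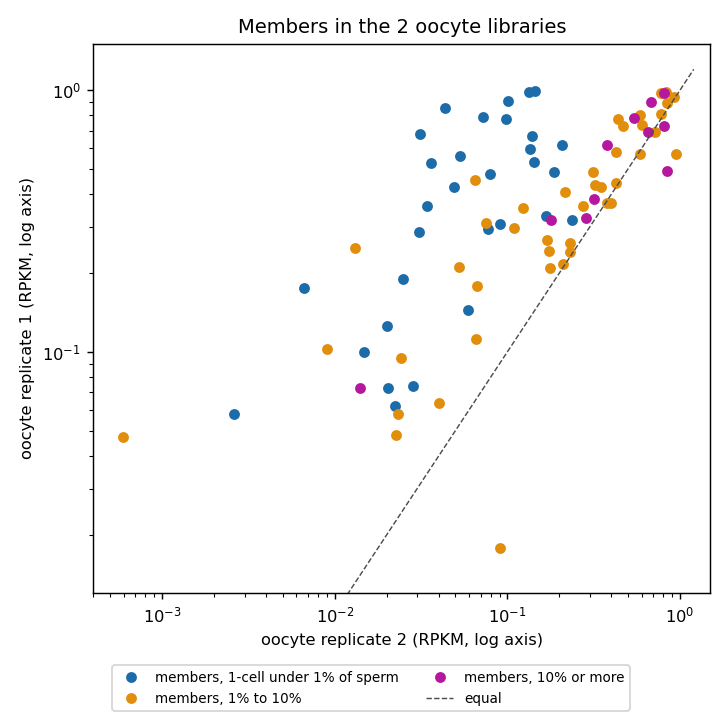
RPKM of the 84 members in oocyte replicate 1 (vertical, log axis) against oocyte replicate 2 (horizontal, log axis), coloured by the 1-cell mean as a percentage of the sperm mean. Of the 31 members under 1% of sperm, 29 lie at over 2 times the dashed line of equal values.

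The members with the largest share of their sperm level in the zygote were genes of modest sperm expression. ZK637.4 stood at 17.3 and 20.3 RPKM in sperm, 0.618 and 0.376 in oocytes, 4.02 and 17.9 in zygotes and 4.93 and 13.7 after the first division, so that its 1-cell mean was 58.2% of the sperm mean and its 1-cell replicate 2 lay within the sperm range. An entry with a name starting in RIT4P, one of 5 members without a match in the annotation, had 18.7 and 29.02 RPKM in sperm, 3.67 and 7.70 at the 1-cell and 4.63 and 11.5 at the 2-cell stage (23.8% of sperm at the 1-cell stage). The percentage was 22.6% for nssp-41 (Y43B11AR.1), 15.6% for C05D11.5 and 15.2% for F13H8.8. C02F5.10 was next to this class at 9.16%, with 71.9 and 193 RPKM in sperm, 10.8 and 13.5 at the 1-cell and 8.48 and 12.1 at the 2-cell stage.

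These genes often shared exon sequence with a gene that embryos express. In the WBcel235 annotation an exon of ZK637.4 overlaps one of lnkn-1, with a 1-cell mean of 183 RPKM, and C02F5.10 overlaps C02F5.13, with 233 RPKM. An exon overlap with a gene that was higher in 1-cell embryos was found for 4 of 8 annotated members of 10% or more, 10 of 42 members of 1% to 10%, and 1 of 29 under 1% (K06A5.2, which overlaps the phosphatase gene cdc-25.1). Over the 79 annotated members it was 15 (18.99%), against 8.47% of 1441 other annotated sperm genes low in oocytes and 9.77% of all 18743 annotated genes of the table. The protocol's second-strand synthesis, as described, does not mark the strand, so reads of overlapping genes cannot be told apart, and the build and gene models behind the table are not given. Next to the member on the chromosome, a gene of at least 10 RPKM in 1-cell embryos was found for 3 of 29 members under 1%, 26 of 42 members of 1% to 10% and 4 of 8 of 10% or more. That share was 41.8% of members, 33.1% of the other sperm genes and 44.7% of all genes. The 15 overlapping members include C14C11.1, sfxn-1.4 and gldi-10; how many of their reads belong to the other gene was not tested.

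No member was called different between the 1-cell and the 2-cell stage. The test was limma's moderated test on log2(RPKM + 1), fitted to all 8 libraries and 11935 genes. This scale makes differences of low genes look smaller. At a Benjamini-Hochberg adjusted p under 0.05 and a log2 difference of at least 1, 0 of 84 members were called (smallest limma adjusted p = 1.0), against 0.0168% of all genes tested (2 genes, both higher). At an unadjusted p under 0.05 there were 0 members and 78 genes in all (0.654%). The median difference was 0.00 log2 over the members and 0.03 over all genes tested, and 42 members were higher and 42 lower. Members had to reach 2 RPKM at the 1-cell stage, which favours a fall afterwards, and none had to reach it at the 2-cell stage.

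The precision of this fit was low. The 95% intervals of the differences reached a median of 0.98 log2 to each side. They spanned -1.96 to 2.04 over all members, and 17 members had an interval inside ±1. Their spread was estimated over all 4 groups, so differences between the sperm or the oocyte libraries also enter them. For nlp-4 the embryo libraries were close, with 3.58 and 3.60 RPKM at the 1-cell and 2.98 and 2.57 at the 2-cell stage. Its sperm libraries had 87.8 and 216 RPKM, and its interval was -1.32 to 0.75 log2. The highest difference was that of nspd-3, from 3.02 and 5.91 RPKM to 8.43 and 6.59 (log2 0.68, 95% interval -0.32 to 1.68, limma unadjusted p = 0.154). gsp-3 followed (log2 0.61, -0.25 to 1.47, limma unadjusted p = 0.139). The lowest difference was that of ssp-35 (log2 -0.65, -1.74 to 0.45, limma unadjusted p = 0.209). A loss of more than 1.74 log2 units, or a gain of more than 0.45, lay outside the interval of ssp-35.

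The members were also read in 2-cell embryos. All 84 members had at least 1 RPKM in both 2-cell libraries, 67 (79.8%) had at least 2 RPKM and 16 at least 5. Among the 1553 other sperm genes low in oocytes, 20 (1.29%) had at least 2 RPKM in both 2-cell libraries. The 2-cell libraries followed the 1-cell libraries of the same number, so this is not a reading independent of the choice. Both 2-cell libraries lay above both 1-cell libraries in 4 members, against 9.39% of all genes tested, and below both in 9, against 6.81%.

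The replicate numbers moved apart. In number 1 the 2-cell value was higher in 57 of 84 members (67.9%, against 58.1% of all genes tested), with a median of 0.15 log2, and in number 2 in 21 (25.0%, against 49.7%), with a median of -0.20. The sum over all 1637 sperm genes low in oocytes went from 1313 to 1717 RPKM in number 1 and from 1199.9 to 1083 in number 2. Members under 1% of sperm had a median of 0.48 in number 1 and -0.20 in number 2. The 5 nspd members differed by 0.48 to 1.23 log2 in number 1 and by -0.22 to 0.13 in number 2, and the 3 MSP members by 0.48 to 1.03 and -0.41 to -0.10.

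**Figure D4:**
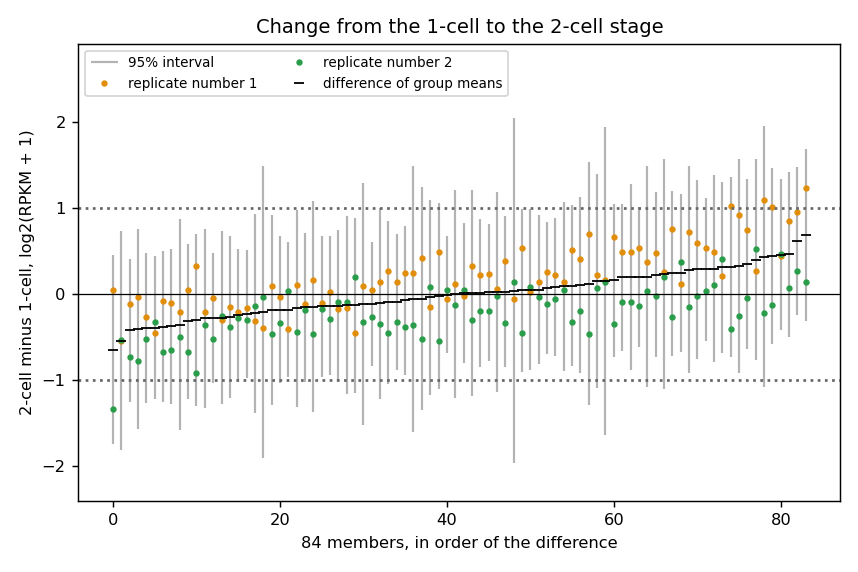
Difference between 2-cell and 1-cell embryos in log2(RPKM + 1) (vertical) for the 84 members in order of the difference (horizontal). Black marks are differences of group means, grey lines their 95% intervals from limma, and coloured points the difference within each replicate number. Differences of means run from -0.65 to 0.68, and dotted lines mark the limit of 1 log2.

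The wider lists of sperm genes, which include the listed members, held 101 tested genes. None of the 30 MSP genes, 16 small MSP-domain genes, 36 genes for sperm function, 10 genes for sperm chromatin and phosphatases and 9 nspd genes tested was called between the 1-cell and the 2-cell stage, and none had an unadjusted limma p under 0.05. With 0.0168% of all genes called and 0.654% at an unadjusted p under 0.05, under 1 gene in lists of this size would be called or reach that p at the background share. With the 4 embryo libraries alone, 4 of the 101 had an unadjusted limma p under 0.05, and 7 with the replicate number as a block, none of them called. The share of all genes at that p is not given for these fits. The 0.654% belongs to the fit of all libraries, so these counts cannot be set against it. The median differences of the lists were 0.17, 0.03, 0.02, 0.26 and 0.34 log2. The chromatin list holds the protamine-like spch genes, and spch-1 (C04G2.8) itself stood at 3306 and 3105 RPKM in sperm but at 1.81 and 1.38 in 1-cell embryos, under the limit. Of 24 early zygotic genes in the table, which older embryos would express, 0 met the sperm and oocyte conditions, so none could be a member. For the 17 that passed the filter the 2-cell minus 1-cell differences had a median of 0.08 log2, with 0 called and 4 at an unadjusted limma p under 0.05.

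The annotated members were shorter in the median than the other sperm genes low in oocytes, and like most of those they lay on autosomes. Their longest annotated transcripts had a median of 783 nucleotides, with 20 of 79 (25.3%) at up to 500 nucleotides, against a median of 1080.0 and 13.7% among the other sperm genes low in oocytes and 1204 and 8.90% among all annotated genes. Members under 1% of sperm had a median of 532 nucleotides and those of 10% or more one of 1069.5. The sperm mean had a median of 1303 RPKM in the former and 23.9 in the latter. The share of genes that were members was largest at high sperm levels, and lengths were not compared at like sperm level. RPKM divides by length, so a 2 RPKM limit asks for fewer reads of a short gene. By chromosome 22 members lay on IV, 18 on III, 16 on II, 14 on I and 9 on V, and 0 on X. X held 3.12% of the other sperm genes low in oocytes and 13.8% of all annotated genes. At 3.12%, a count of 0 among 79 members says little. Chromosome III held 22.8% of the members, against 12.98% of the other sperm genes and 13.4% of all genes. A neighbour that met the sperm and oocyte conditions was found for 34 of 79 members (43.04%), 39.1% of the other sperm genes and 14.8% of all genes. Members adjacent to each other were C24D10.2 with nspd-3 and nspd-6, and F11G11.4 with nspd-5.

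**Figure D5:**
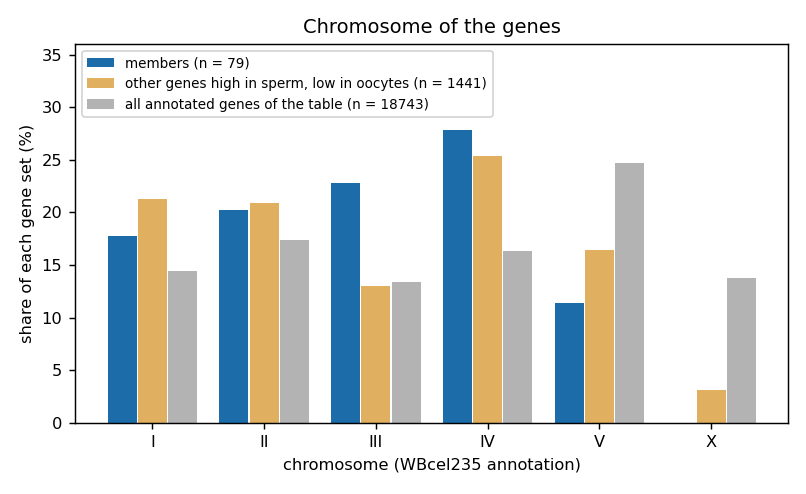
Share of each gene set on each chromosome (vertical, percent; WBcel235 annotation) for 79 annotated members, 1441 other genes high in sperm and low in oocytes, and all 18743 annotated genes of the table. No member lies on X, which holds 3.12% of the other sperm genes and 13.8% of all genes.

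Genes outside the set can have the same profile. Over the 8 libraries the gene whose log2(RPKM + 1) lay closest to the median profile of the members was cyn-2 (ZK520.5), a cyclophilin gene, with a Pearson's r of 0.999. Oocytes held 2.31 and 1.49 RPKM of it, above the limit of the rule. Sperm held 887 and 1102 RPKM, zygotes 10.1 and 11.4, and the 2-cell libraries 15.2 and 10.3. Y39E4B.11, C55A6.4, Y38C1AA.7 and btb-2 followed with r of 0.997 to 0.998. Y38C1AA.7 had 11.9 and 9.63 RPKM in 1-cell embryos and was kept out by 1.24 RPKM in oocyte replicate 1.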

How the data were processed

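The authors deposited RPKM per gene for 8 libraries in 1 table. The submitters' processing notes name BWA, with no version or role. The genome build, gene models, counting tool and the reads taken as the total are not given in the sources used here. RPKM were used as deposited. Gene names were matched by sequence name to the Ensembl and RefSeq WBcel235 annotations, which found 18743 of 21774 genes. 5 members had no match. Names, chromosomes, longest transcripts and neighbours came from there, and no coordinates are given.

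A filter of 1 RPKM in 2 or more libraries kept 11935 genes, all 84 members among them. The log2(RPKM + 1) values, computed from the deposited RPKM, were fitted in R 4.3.3 by limma 3.58.1, with a model of 4 groups with a variance trend, two-sided. The test was run on simulated data with equal and independent noise. Same-numbered embryo libraries deviated together here (r = 0.877), so that run does not show how the test works on these data. The members, gene lists and alternatives were chosen with earlier results of these data known. Named genes were the 20 highest in 1-cell embryos, up to 6 members of each list, the 5 highest and 5 lowest percentages of sperm, 3 on each side of the 1-cell limit and the 5 most similar profiles. Others, named for a known function, an overlap, a spread or a margin, were chosen after their values were seen.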

Additional observations from a re-analysis of the deposited data

How the results depend on the processing

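The number of genes that met the rule, 84 as given, depended on its limits: 250 with a 1-cell minimum of 1 RPKM, 14 with 5 RPKM, 51 with an oocyte maximum of 0.5 RPKM and 129 with 2 RPKM. It was 44 with median-of-ratios scaling, 43 of them members, and leaving out 1 library gave 87 to 168. A 2-cell minimum of 5 RPKM left 16 members. Quantile normalization gave 61 genes, of which 21 are members. The count of members called between stages was 0 in all 18 alternatives (pseudocounts, filter, scalings, embryo libraries alone, length trend removed, each library left out), but 13 of these called 0 genes of the whole table and the others 1 to 6, so this count could hardly move. None of 629 values of 35 named members was called, while 55 had the other sign. With a replicate block 0 members were called and their median difference was 0.00, in all 8 libraries and in the 4 embryo libraries alone. In the latter, 1 member had an unadjusted limma p under 0.05 (smallest limma adjusted p = 0.606). The share of all genes at that p is not given for this fit. Same-numbered embryo libraries deviated together (r = 0.877), but 2 pairs do not show that they share a culture. Without 2-cell replicate 1 the median of the members was -0.20, and without replicate 2 it was 0.18, so its sign moved with 1 library; the lone 2-cell library is there assumed to vary like the other groups. Without 1-cell replicate 1 the rule gave 137 genes, and without replicate 2 it gave 168. The fewest rough reads of an annotated member were 13.4 in 1-cell replicate 1, for nspd-3 at 3.02 RPKM.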
